A study of Mus musculus with 18 samples.

Results

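A set of 8 genes that move ions and water across the epithelium of the fetal lung was followed in mouse embryonic lungs taken whole at 14.5 dpc (days post coitus). They were found by their symbols in the gene column of the expression tables, where all 8 of 8 were present among 23420 rows, and all 8 passed the filter on low values in each line. The fetal lung is filled with a liquid that its own epithelium secretes. Chloride enters the cell from the basolateral side through a sodium, potassium and chloride cotransporter, leaves it through apical chloride channels, and sodium and water follow into the lumen. Around birth the flow reverses, when the epithelial sodium channel takes up sodium on the apical side and the sodium pump extrudes it on the other. The 8 genes are Cftr (cystic fibrosis transmembrane conductance regulator, an apical chloride channel), Ano1 (anoctamin 1, a calcium-activated chloride channel), Clcn2 (the voltage-gated chloride channel ClC-2), Slc12a2 (the cotransporter NKCC1), Scnn1a, Scnn1b and Scnn1g (the alpha, beta and gamma subunits of the epithelial sodium channel), and Atp1b1 (the beta 1 subunit of the sodium pump).

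Lungs were compared in 3 mouse lines, in each of which a single gene was removed from the lung epithelium. Rptor encodes raptor, a component of the growth-regulating kinase complex mTORC1, Tfam a protein that keeps up and transcribes the mitochondrial genome, and Cox10 an assembly factor of cytochrome c oxidase. Deficient lungs carried 2 floxed alleles (Rptorf/f; ShhCre/+, Tfamf/f; ShhCre/+ or Cox10f/f; ShhCre/+) and control lungs carried 1 (Rptorf/+; ShhCre/+, Tfamf/+; ShhCre/+ or Cox10f/+; ShhCre/+), with 3 samples of each per line and 18 samples in all. Cre was expressed from the Shh locus, so that it acts in the epithelium and not in the other cells of the lung, and all 6 groups carried ShhCre/+. Nothing in the labels says that the 3 samples of a group came from separate embryos, so p-values measure the spread between these samples only.

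Each sample held between 27675601 and 29704748 reads. Over the whole lung the gene removed in each line stood close to its control level, with Rptor at 96.0%, Tfam at 92.0% and Cox10 at 99.6% of control in their own lines (limma adjusted p = 0.57, 0.472 and 0.979). The part of each gene that is removed is not given in the sources used here, and the totals over a gene in whole lung therefore do not check the genotypes. Of 8 epithelial markers, 8 passed the threshold as lower in the Rptor line, 4 with Tfam loss and 1 with Cox10 loss. Cox10 deficient 3 stood apart from the other samples of its group, with a chi-square per gene of 26.5 and 30.1 against them where they differed from each other by 7.86, and of 22.4 against a sample of another line, Rptor deficient 2. Rptor deficient 1 also stood apart from its group (20.4 and 25.7, where the others differed by 11.7), and without it the members called in the Rptor line still numbered 7. Without Cox10 deficient 3, 251 genes in place of 71 passed in the Cox10 line, Epcam, Cdh1 and Nkx2-1 were all lower (limma adjusted p = 0.00695, 0.00228 and 0.0123), and 3 members in place of 2 were called. Without any of the Cox10 controls, 3 to 5 genes passed. Cdh1 and Nkx2-1 also passed in the Cox10 line by DESeq2 (adjusted p = 0.00532 and 0.00102) and with all 18 samples in one fit (0.0214 and 0.0193). The summed level of these markers (Epcam, Cdh1, Nkx2-1, Krt8, Krt18, Grhl2, Esrp1 and Cldn6) ran from 29787 to 30661 in Rptor controls and from 11765 to 15427 in Rptor-deficient lungs, or 45.2% of control, and was 82.8% of control for Tfam and 76.6% for Cox10. The summed level of 6 mesenchymal markers was 192%, 105% and 119% of control in the same order. Most of that sum is Col1a1 and Col3a1, at 220% and 192% in the Rptor line. Tbx4, Pdgfrb, Pdgfra and Tcf21 stood at 97.6%, 129%, 161% and 170% there. In whole lung, fewer epithelial cells and less RNA of a gene per epithelial cell cannot be told apart.

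The 250 bases upstream of the RefSeq starts of Cftr, Ano1, Scnn1b and Scnn1g are shown because these members fell in both the Rptor and the Tfam line, as did Scnn1a, whose window is not shown (build GRCm38.p6, 5′ to 3′ on the strand of the gene). Cftr lies at chr6:18170687-18322768 on the plus strand, and its upstream window is chr6:18170437-18170686. Ano1 lies at chr7:144588549-144751974 on the minus strand with its window at chr7:144738574-144738823, inside the annotated gene since the RefSeq start lies downstream of the annotated one. Scnn1g (chr7:121734479-121768475) and Scnn1b (chr7:121865038-121918514) are neighbours on the plus strand, separated by 96562 bases, with windows at chr7:121734229-121734478 and chr7:121864788-121865037. Capitals mark matches to the letters GGGCGG (the GC box, which reads CCGCCC on the other strand) and, in Scnn1g, a match to CAAGTG (the core bound by NKX factors) on the minus strand, written CACTTG.
Cftr: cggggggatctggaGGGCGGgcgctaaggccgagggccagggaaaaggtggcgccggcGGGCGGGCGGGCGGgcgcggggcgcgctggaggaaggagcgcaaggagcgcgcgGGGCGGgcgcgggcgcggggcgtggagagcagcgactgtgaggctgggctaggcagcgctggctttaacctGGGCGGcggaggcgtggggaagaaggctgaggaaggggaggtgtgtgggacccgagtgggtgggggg
Ano1: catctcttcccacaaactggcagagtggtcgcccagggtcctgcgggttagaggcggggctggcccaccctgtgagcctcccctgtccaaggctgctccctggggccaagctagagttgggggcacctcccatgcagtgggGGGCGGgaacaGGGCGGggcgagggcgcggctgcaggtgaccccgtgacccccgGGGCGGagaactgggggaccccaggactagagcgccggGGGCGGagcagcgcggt
Scnn1b: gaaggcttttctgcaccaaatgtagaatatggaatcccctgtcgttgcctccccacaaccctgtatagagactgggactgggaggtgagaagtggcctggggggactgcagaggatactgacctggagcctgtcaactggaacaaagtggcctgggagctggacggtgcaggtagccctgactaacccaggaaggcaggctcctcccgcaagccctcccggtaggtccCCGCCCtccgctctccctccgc
Scnn1g: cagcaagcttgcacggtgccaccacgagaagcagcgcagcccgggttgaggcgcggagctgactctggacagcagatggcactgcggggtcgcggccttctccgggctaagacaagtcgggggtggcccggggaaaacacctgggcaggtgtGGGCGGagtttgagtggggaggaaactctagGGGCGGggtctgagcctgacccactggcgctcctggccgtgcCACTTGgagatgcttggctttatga

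All 4 windows held at least 1 GC box, with 6 matches upstream of Cftr, 4 upstream of Ano1, 2 upstream of Scnn1g and 1 upstream of Scnn1b, and 3 of the Cftr matches overlap each other. Of 32851 promoter windows of this length, 32.7% held GGGCGG on either strand and 11.6% held CAAGTG. The letters CCAAT (33.8% of all windows), ACAATG (10.7%, a SOX core), TGTTTAC (3.17%, a forkhead core), AACCNGTT (1.79%, a grainyhead core) and AGAACA (16.1%, a glucocorticoid receptor half-site) were searched on both strands and are in none of these 4 windows. The windows were rich in G and C, with 76.4% for Cftr, 72.0% for Ano1, 65.2% for Scnn1g and 60.8% for Scnn1b against a median of 52.4% over all windows. These matches describe the letters only.

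Per length of exon, Ano1, Slc12a2 and Atp1b1 were the abundant members and the sodium channel subunits the scarce ones. In Rptor controls, Ano1 stood at 14.3 ± 0.81 (SD, n = 3) and Slc12a2 at 13.8 ± 1.5 RPKM (reads per kilobase of exon, scaled to the reads of the library), and these did not separate. Atp1b1 followed at 9.30 ± 1.3. Cftr stood at 2.98 ± 0.72 and Clcn2 at 2.39 ± 0.23, whose samples overlapped, then Scnn1g at 2.00 ± 0.31, Scnn1b at 1.02 ± 0.12 and Scnn1a at 0.886 ± 0.052. The samples of Clcn2 and Scnn1g overlapped, and so did those of Scnn1b and Scnn1a, while Scnn1g lay above Scnn1b in every sample. In Rptor-deficient lungs the order changed, with Slc12a2 first at 10.1 ± 1.4, and Cftr at 0.491 ± 0.076 was then the second lowest by mean, above Scnn1b at 0.242 ± 0.11. The samples of Cftr there overlapped those of Scnn1a (0.566 ± 0.066). In Cox10 controls Scnn1b was the lowest member at 0.349 ± 0.055. Levels of different lines come from tables that were scaled separately and are not compared.

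**Figure D1:**
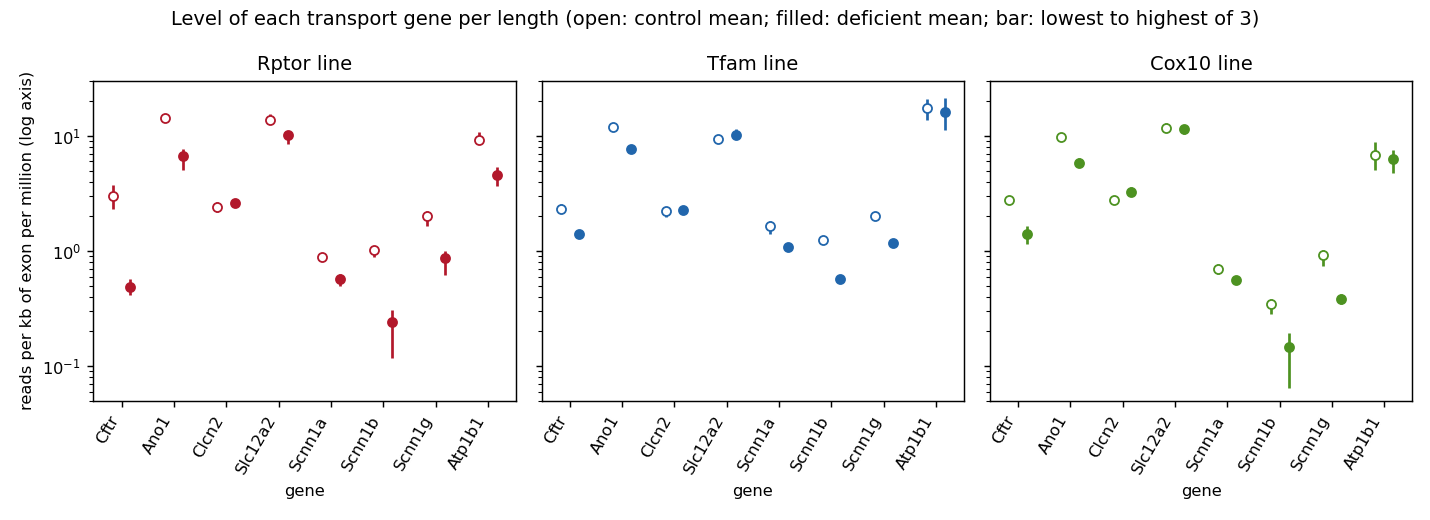
Level of the 8 transport genes in RPKM (vertical log axis), 1 panel per line, with open circles for control means, filled circles for deficient means and bars from the lowest to the highest of 3 samples. Ano1, Slc12a2 and Atp1b1 lie highest in each panel and Scnn1b falls to 0.242 in Rptor-deficient and 0.147 in Cox10-deficient lungs.

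Loss of Rptor lowered 7 of the 8 members, loss of Tfam lowered 5, and loss of Cox10 lowered 2, and none of the 8 rose past the threshold in any line. These counts stand beside a background that differs widely between lines. Of all genes in the Rptor line, 34.8% of the 14940 genes tested passed the threshold in either direction and 18.2% were lower. The shares were 4.66% and 2.63% of 15053 genes for Tfam, and 0.475% and 0.335% of 14937 genes for Cox10. The control and deficient samples did not overlap for 7 members with Rptor loss, 5 with Tfam loss and 6 (5 lower and 1 higher) with Cox10 loss, where the background of genes without overlap was 50.3%, 22.8% and 21.3%. The median log2 fold change of the 8 members was -1.10 (Rptor), -0.63 (Tfam) and -0.54 (Cox10), beside medians of 0.0083, 0.0010 and 0.0014 over all genes tested. The 5 members lower in the Tfam line were all among the 7 lower in the Rptor line, and Cftr and Ano1 were lower in all 3 lines.

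**Figure D2:**
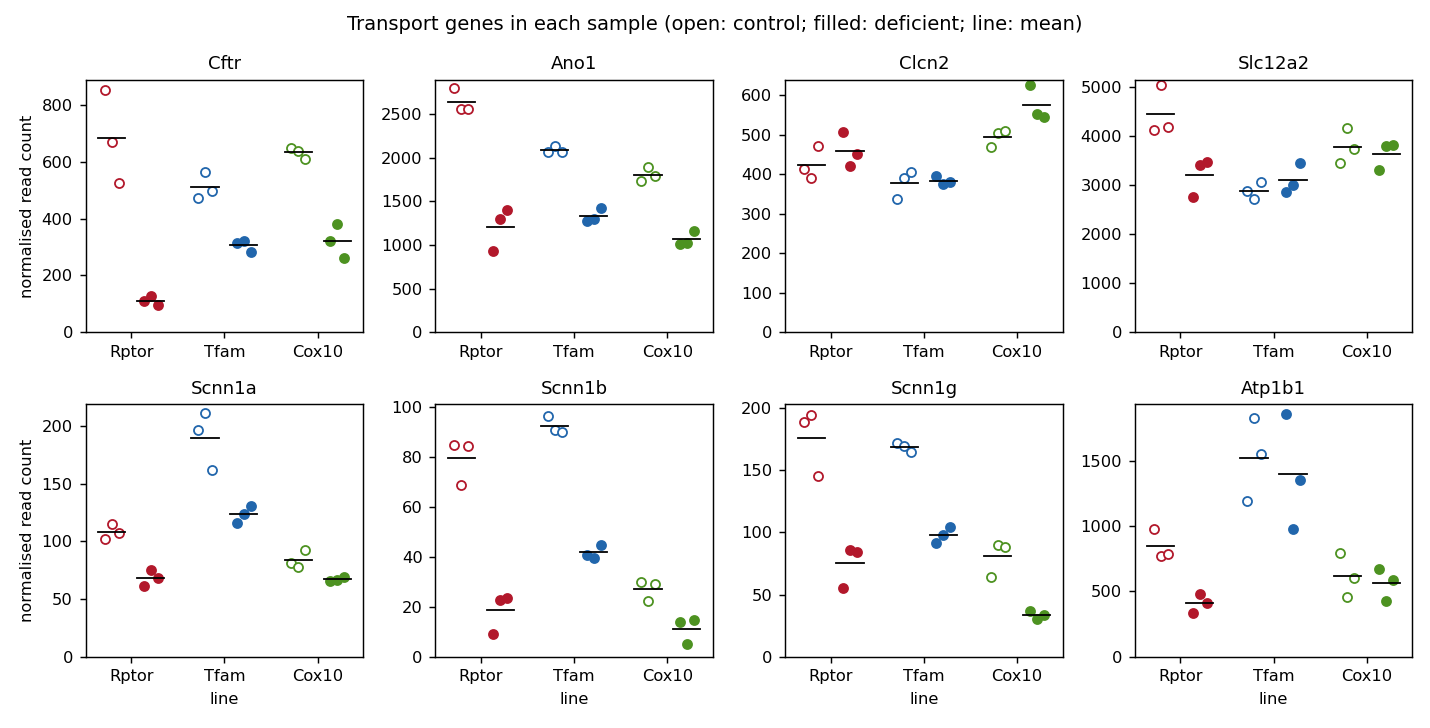
Normalised read count (vertical axis, from 0) of each transport gene in every sample of the 3 lines, with open circles for control samples, filled circles for deficient samples and a black line at the mean of 3. Cftr falls from a mean of 682 to 111 in the Rptor line, whereas Clcn2 overlaps between groups in the Rptor and Tfam lines.

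Cftr, an apical chloride channel, had the lowest log2 fold change of the 8 in the Rptor line. Its 95% interval (-3.01 to -2.17) overlapped that of Scnn1b (-2.93 to -1.35). In the Rptor line the normalised read count of Cftr was 851, 669 and 526 in controls and 111, 128 and 94.9 in deficient lungs, and every deficient sample lay far below the lowest control. Its log2 fold change was -2.59 ± 0.18 (SE), a fall to 16.3% of control (limma adjusted p = 5.94e-05). In the Tfam line, Cftr read 472, 563 and 495 in controls and 315, 322 and 282 in deficient lungs. The groups were apart here too, with a log2 fold change of -0.73 ± 0.096 (limma adjusted p = 0.00132). In the Cox10 line the values were 649, 639 and 610 against 321, 380 and 261, again with no overlap, and the log2 fold change was -0.99 ± 0.13 (limma adjusted p = 0.0293). The Cox10 call was lost in 4 of the 6 fits that left out a sample (adjusted p of 0.00495 to 0.21 over the 6 fits), in those without control 1, 2 or 3 or deficient 1, while the log2 fold change stayed between -1.12 and -0.85.

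The fall of Cftr was larger after loss of Rptor than after loss of Tfam or Cox10. Its log2 fold change in the Rptor line was lower than that for Tfam (difference -1.85, 95% interval -2.32 to -1.39, limma adjusted p = 6.54e-05), and lower than that for Cox10 (difference -1.60, 95% interval -2.06 to -1.13, limma adjusted p = 0.000327). Both calls held in all 12 fits that left out a sample. Between the Tfam and Cox10 lines the difference was 0.26 with an interval of -0.21 to 0.73 (limma adjusted p = 0.977). Over all 14550 genes tested in the 3 lines, 11.2% had an effect that differed between the Rptor and Tfam lines, 7.48% between the Rptor and Cox10 lines and 0.055% between the Tfam and Cox10 lines.

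Ano1, a chloride channel opened by calcium, fell in all 3 lines. Within the Rptor line its normalised read count was 2801, 2563 and 2560 in controls and 932, 1292 and 1401 in deficient lungs. These did not overlap, and the log2 fold change was -1.15 ± 0.14 (limma adjusted p = 0.000578). Controls of the Tfam line read 2065, 2134 and 2064 and deficient lungs 1275, 1292 and 1425. The gap again exceeded the spread within groups, with a log2 fold change of -0.65 ± 0.062 (limma adjusted p = 0.000191). Within the Cox10 line Ano1 stood at 1733, 1897 and 1792 in controls and at 1015, 1017 and 1158 in deficient lungs, where all 3 deficient samples were lower (log2 fold change -0.77 ± 0.070, limma adjusted p = 0.00668). The Cox10 call was lost in the 3 fits that left out control 1, 2 or 3 (adjusted p of 0.0011 to 0.104 over 6 fits). The fall with Rptor loss exceeded that with Tfam loss (difference -0.50, 95% interval -0.81 to -0.18, limma adjusted p = 0.0415), a call that was lost in 10 of 12 fits that left out a sample (all except those without Rptor deficient 2 or 3), without a filter on low values (0.0562) and with scaling to library totals (0.0501).

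Clcn2, the voltage-gated chloride channel, did not pass the threshold in any line. Its normalised read count was 413, 390 and 471 in Rptor controls and 508, 420 and 451 in Rptor-deficient lungs, which overlapped (log2 fold change 0.11, 95% interval -0.14 to 0.36). Within the Tfam line it was 336, 391 and 405 against 395, 374 and 381, with a log2 fold change of 0.03 and an interval of -0.18 to 0.23. Only in the Cox10 line were the groups apart, with 469, 505 and 509 in controls and 625, 553 and 545 in deficient lungs, and this difference did not pass the correction (log2 fold change 0.21, 95% interval 0.02 to 0.40, limma adjusted p = 0.353). The gene lies at chr16:20702964-20717746 on the minus strand, and shares 1.4% of its exon bases with Fam131a and 1.4% with Polr2h on the other strand.

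Slc12a2, the basolateral cotransporter that loads the cell with chloride, passed the threshold as lower in the Rptor line and not in the others. Its normalised read count was 4130, 5036 and 4186 in Rptor controls and 2752, 3419 and 3478 in Rptor-deficient lungs. The groups did not overlap, and the log2 fold change was -0.47 ± 0.11, or 72.3% of control (limma adjusted p = 0.0106). For the Tfam line the values were 2885, 2719 and 3064 against 2859, 3000 and 3452, which overlapped (log2 fold change 0.10, 95% interval -0.07 to 0.27). For the Cox10 line they were 3448, 4166 and 3734 against 3302, 3794 and 3824, which overlapped as well (log2 fold change -0.05, 95% interval -0.25 to 0.14). The effect was lower with Rptor loss than with Tfam loss (difference -0.57, 95% interval -0.88 to -0.26, limma adjusted p = 0.019), with the call lost in the 3 fits without Rptor control 2, Tfam control 2 or Tfam deficient 3 (0.0544 to 0.059). Against the Cox10 line the difference was -0.42 with an interval of -0.72 to -0.11 (limma adjusted p = 0.0924), and it passed with the replicate number as a block (adjusted p = 0.016). The gene lies on chromosome 18 (57878678 to 57946821, plus strand).

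The 3 subunits of the epithelial sodium channel fell together in the Rptor and Tfam lines, although relative to Epcam, Cdh1 and Nkx2-1 the value of Scnn1a in the Rptor line was 0.51, beside a median of 1.18 over all genes on that scale. Scnn1a, the pore-forming alpha subunit (chr6:125320659-125344943), read 102, 115 and 107 in Rptor controls and 61.2, 75.3 and 68.2 in Rptor-deficient lungs. The groups were apart, at 63.2% of control (log2 fold change -0.66 ± 0.15, limma adjusted p = 0.0117), and the call was lost without control 2 (0.0502). Across the Tfam line Scnn1a read 196, 211 and 162 against 116, 124 and 131. This was a similar fall in size (log2 fold change -0.61 ± 0.13, limma adjusted p = 0.0232), but the call was lost in 5 of 6 fits that left out a sample, all except the one without control 3 (adjusted p of 0.0105 to 0.103). Across the Cox10 line the values were 81.4, 77.7 and 92.9 against 65.9, 66.4 and 69.2, apart but not past the threshold (log2 fold change -0.32, 95% interval -0.66 to 0.03, limma adjusted p = 0.421).

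Scnn1b, the beta subunit, was the scarcest member by read count and had the second lowest log2 fold change in the Rptor line, with an interval that overlapped that of Cftr. Its normalised read count was 84.8, 68.9 and 84.6 in controls and 9.18, 22.8 and 23.7 in Rptor-deficient lungs. No deficient sample came near a control, and the log2 fold change was -2.14 ± 0.35, or 23.4% of control (limma adjusted p = 0.00233). The Tfam samples read 96.5, 91.0 and 90.0 against 40.7, 39.7 and 45.0. The replicates were tight here (log2 fold change -1.13 ± 0.15, limma adjusted p = 0.00165), although the call was lost when all 18 samples shared one fit (0.0922). In the Cox10 line only 29.8, 22.2 and 29.0 were counted in controls and 14.0, 5.03 and 14.8 in deficient lungs. Every deficient sample was lower, but at this depth the 95% interval of the log2 fold change of -1.30 ran from -2.26 to -0.34 (limma adjusted p = 0.286).

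Scnn1g, the gamma subunit, followed the beta subunit. In Rptor controls it read 189, 195 and 145 and in Rptor-deficient lungs 55.1, 86.2 and 84.0, without overlap (log2 fold change -1.24 ± 0.21, limma adjusted p = 0.00284). Within the Tfam line it read 172, 170 and 165 against 91.3, 98.3 and 105, again apart (log2 fold change -0.78 ± 0.12, limma adjusted p = 0.0033). Within the Cox10 line it read 64.5, 89.8 and 87.9 against 36.9, 30.2 and 33.6. The log2 fold change there, -1.23 ± 0.20 with an interval of -1.70 to -0.76, was as large as in the Rptor line but missed the threshold (limma adjusted p = 0.0553). The call was made with DESeq2 on recovered reads (adjusted p = 0.00327), with all 18 samples in one fit (0.000757) and without deficient 3 (0.0382), over a range of 0.000757 to 0.0974 among the settings that kept all samples and the levels of whole lung. The effects in the Rptor and Cox10 lines differed by -0.01 with an interval of -0.54 to 0.53.

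Atp1b1, a subunit that the sodium pump needs to reach the membrane, passed the threshold in 1 line, that of Rptor. It read 978, 771 and 785 in controls and 338, 479 and 412 in Rptor-deficient lungs, which were apart at 48.5% of control (log2 fold change -1.05 ± 0.14, limma adjusted p = 0.00108). For the Tfam line it read 1194, 1823 and 1553 against 1855, 979 and 1353. Both groups were widely spread, and the log2 fold change of -0.15 had an interval of -0.60 to 0.29. For the Cox10 line it read 792, 460 and 601 against 674, 428 and 591, with a log2 fold change of -0.12 and an interval of -0.63 to 0.39. The differences between the Rptor line and the others were -0.90 for Tfam (95% interval -1.59 to -0.20, limma adjusted p = 0.0857) and -0.93 for Cox10 (95% interval -1.62 to -0.24, limma adjusted p = 0.0965). The difference from the Tfam line passed without Tfam deficient 2 (-1.13, adjusted p = 0.0414). Atp1b1 (chr1:164437109-164458355, minus strand) shares 18.7% of its exon bases with Nme7 on the opposite strand, and whether the reads were counted by strand is not given in the sources used here.

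Of the 8 members, 3 had an effect that differed between the Rptor and Tfam lines (Cftr, Slc12a2 and Ano1), beside 11.2% of all genes, and 1 differed between the Rptor and Cox10 lines (Cftr), beside 7.48% of all genes. The 3 became 1 (Cftr) without Rptor control 2, Tfam control 2 or Tfam deficient 3, and the 1 became 2 without Rptor deficient 3, where Ano1 passed (adjusted p = 0.0399). Between the Tfam and Cox10 lines 0 of 8 differed by limma, by edgeR and by DESeq2, and 0 had an unadjusted p below 0.05 by limma.

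**Figure D3:**
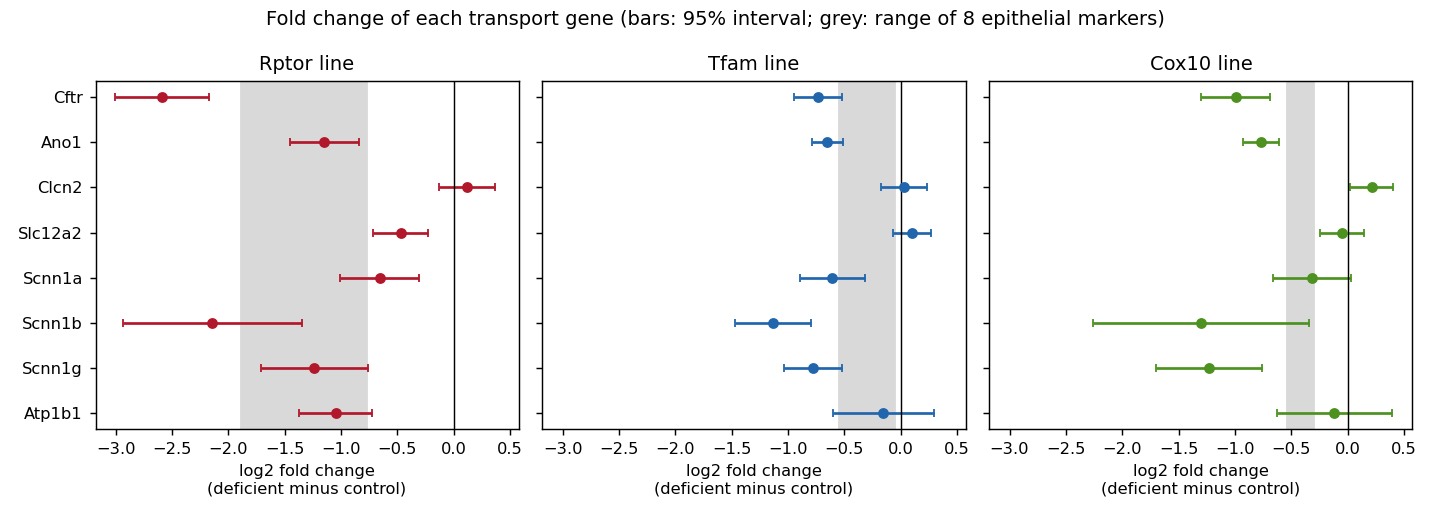
Log2 fold change (horizontal axis, deficient minus control) of each transport gene in 1 panel per line, with 95% intervals as bars and the range of 8 epithelial markers as a grey band. For the Rptor line the band runs from -1.89 to -0.77 and only Cftr and Scnn1b lie below it, whereas in the Tfam line 5 genes lie below a band of -0.55 to -0.05.

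The summed epithelial markers also fell in each line, though not in step with the members. Their sum was lower for Cox10 (76.6% of control) than for Tfam (82.8%). The median log2 fold change of the members was smaller in size for Cox10 (-0.54) than for Tfam (-0.63). Smooth muscle markers (Acta2, Tagln, Myh11 and Cnn1) moved as well, with 3 of 4 lower and Acta2 higher in the Rptor line, 3 of 4 lower with Tfam loss and 0 of 4 past the threshold with Cox10 loss, and sums at 110%, 75.4% and 79.3% of control. Their part in the members' results was not tested. Across the Rptor line all 8 markers were lower, with log2 fold changes from -1.89 (Cdh1, E-cadherin, which joins epithelial cells) to -0.77 (Epcam, a surface protein of epithelial cells). Nkx2-1, the transcription factor of the lung epithelium, was at -0.86. Cftr and Scnn1b lay below this range, Ano1, Scnn1g and Atp1b1 lay inside it, and Scnn1a, Slc12a2 and Clcn2 lay above it. Across the Tfam line 4 of 8 markers were lower and their range was -0.55 to -0.05. Cftr, Ano1, Scnn1a, Scnn1b and Scnn1g all lay below it. Across the Cox10 line 1 of 8 markers was lower (Grhl2) and the range was -0.54 to -0.30. Cftr, Ano1, Scnn1b and Scnn1g lay below it. The part of this change in the members' results was not tested beyond the values that follow.

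When Epcam, Cdh1 and Nkx2-1 of the same sample served as the reference (their mean on the log2 scale), Cftr and Scnn1b were still lower in the Rptor line. Since these 3 genes fell themselves, the reference raised nearly all genes, with a median relative log2 fold change over all genes of 1.18 (Rptor), 0.27 (Tfam) and 0.40 (Cox10). In the Rptor line Cdh1 fell more (-1.89) than Epcam (-0.77) and Nkx2-1 (-0.86), so the size of this shift depends on Cdh1. A reference without Cdh1 was not tested. The relative log2 fold change of Cftr was -1.42 (95% interval -1.86 to -0.98) and that of Scnn1b was -0.97 (-1.60 to -0.34). Ano1 (0.02, interval -0.26 to 0.31), Scnn1g (-0.06, interval -0.50 to 0.37) and Atp1b1 (0.12, interval -0.21 to 0.45) had intervals that spanned 0. Scnn1a (0.51) and Slc12a2 (0.70) lay between 0 and the median of all genes, and the interval of Clcn2 (1.29, interval 0.91 to 1.66) held that median. In the Tfam line the relative values of Scnn1b (-0.86), Scnn1g (-0.51), Cftr (-0.46), Ano1 (-0.38) and Scnn1a (-0.33) had intervals below 0, although Scnn1a did not pass after adjustment (limma adjusted p = 0.0638), and the intervals of Slc12a2 (0.37, interval 0.21 to 0.54) and Clcn2 (0.30, interval 0.06 to 0.54) held the median of all genes. In the Cox10 line Scnn1b (-0.91), Scnn1g (-0.84), Cftr (-0.60) and Ano1 (-0.37) had intervals below 0, although Scnn1b did not pass after adjustment (limma adjusted p = 0.0759), and the intervals of Clcn2 (0.61, interval 0.28 to 0.94) and Slc12a2 (0.34, interval 0.06 to 0.62) held the median of all genes. The difference between the Rptor and Tfam lines on this scale was -0.96 for Cftr (interval -1.54 to -0.37) and 0.40 for Ano1 (interval 0.12 to 0.68), beside a median of 0.90 over all genes.

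**Figure D4:**
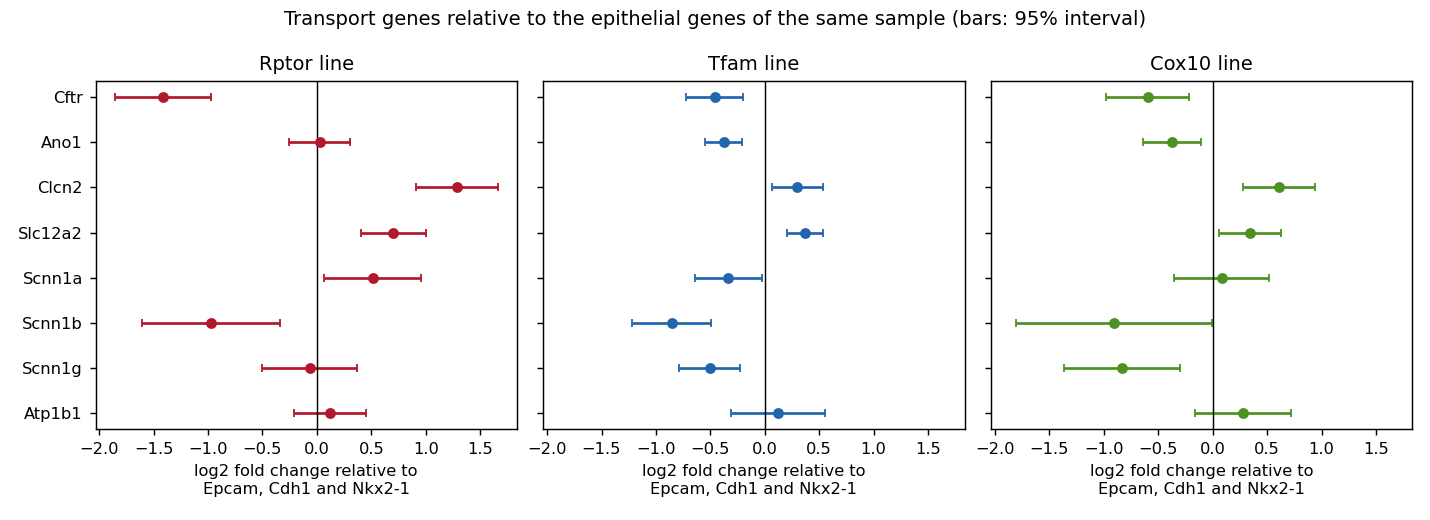
Log2 fold change of each transport gene relative to Epcam, Cdh1 and Nkx2-1 of the same sample (horizontal axis), 1 panel per line, with 95% intervals as bars. Cftr at -1.42 and Scnn1b at -0.97 are lower in the Rptor line, and Clcn2 at 1.29 is the highest, beside a median of 1.18 over all genes.

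Across the 18 samples, after each line was centred on its own mean, the members other than Clcn2 varied together to different degrees. Pearson's r ran from 0.827 to 0.963 over the 10 pairs among Cftr, Ano1, Scnn1a, Scnn1b and Scnn1g, from 0.558 to 0.75 between Atp1b1 and these 5, and from 0.416 to 0.626 between Slc12a2 and the 6 others. Clcn2 had a negative r with each of the other members, from -0.62 to -0.22, and passed the threshold in no line. These values describe samples that share a difference between deficient and control lungs. The genes most like Ano1 were Esrp2 (r = 0.986), a splicing regulator of epithelial cells, Grhl2 (0.985), a transcription factor of epithelia, and Irx3 (0.977). Those most like Cftr were Entpd3 (0.975), Aldh1a7 (0.973) and Homer2 (0.970). Scnn1g was most like Ano1 itself (0.963), then Cym (0.950) and Nedd9 (0.948). Scnn1b was most like Il17re (0.958), Arhgdig (0.953) and Lmcd1 (0.949), and Scnn1a most like Slc35e3 (0.944), Dennd1c (0.944) and Cd55 (0.943). Slc12a2 was most like Ckap2 (0.944), Adk (0.937) and Tmed7 (0.923), Atp1b1 most like Rcan2 (0.877), Sod2 (0.875) and Rab11fip1 (0.872), and Clcn2 most like 9930012K11Rik (0.80), Tnfrsf14 (0.792) and Dnm3 (0.788).

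Other genes of epithelial ion and water transport were examined as a list of 61, of which 60 were matched and 50 passed the filter in each line. With Rptor loss 9 were higher and 9 lower, with Tfam loss 3 higher and 4 lower, and with Cox10 loss 0 passed the threshold with limma or edgeR, with 2 by DESeq2 and 7 at an unadjusted p below 0.05. Over all genes tested, 34.8% (Rptor), 4.66% (Tfam) and 0.475% (Cox10) passed, so that 18 of 50 for Rptor is close to the share over all genes. The median log2 fold change of the 50 was 0.05 (Rptor), 0.01 (Tfam) and 0.06 (Cox10). Of the 7 genes called in the Tfam line, 6 were among the 18 called in the Rptor line, all in the same direction.

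Aqp4, a water channel, had a lower log2 fold change than any member in the Rptor line. It read 320, 440 and 440 in Rptor controls and 30.6, 59.4 and 27.7 in Rptor-deficient lungs, which were far apart (log2 fold change -3.39, limma adjusted p = 0.000128). Within the Tfam line it read 397, 424 and 358 against 215, 223 and 215, a smaller fall (log2 fold change -0.85, limma adjusted p = 0.000495), with the call lost when all 18 samples shared one fit (0.0632). Within the Cox10 line it read 322, 450 and 411 against 151, 253 and 215, apart but not past the threshold (log2 fold change -0.95, limma adjusted p = 0.126). Aqp1, the water channel of endothelium, rose in the Rptor line (0.82, adjusted p = 0.000151) and with Tfam loss (0.46, adjusted p = 0.0137), where the call was lost without deficient 2 or 3 (0.056 and 0.0698) and with all 18 samples in one fit (0.13). Summed endothelial markers stood at 129% and 105% of control in these lines, and the part of this in the rise of Aqp1 was not tested.

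Of 15 genes that process or control the epithelial sodium channel, 3 were higher and 5 lower in the Rptor line, 1 was higher and 3 lower with Tfam loss, and 0 passed with Cox10 loss, beside 34.8%, 4.66% and 0.475% of all genes. Prss8 (prostasin, a protease that activates the channel) read 1047, 1032 and 986 in Rptor controls and 371, 432 and 499 in Rptor-deficient lungs, and 1435, 1462 and 1476 against 1036, 1063 and 1031 in the Tfam line. All deficient samples were below all controls in both lines, with log2 fold changes of -1.24 and -0.48 (limma adjusted p = 0.000162 and 0.000717). Relative to Epcam, Cdh1 and Nkx2-1 both calls of Prss8 were lost (-0.07 and -0.21, adjusted p = 0.617 and 0.054). St14 (matriptase), which cleaves prostasin, fell by 0.75 and 0.32 on the log2 scale in the same lines (limma adjusted p = 0.00095 and 0.00691). The Tfam call of St14 was lost with all 18 samples in one fit (adjusted p = 0.146) and relative to the epithelial genes (-0.05, adjusted p = 0.615). Furin, another protease that cleaves the channel, did not pass, with log2 fold changes of 0.18 (Rptor), 0.07 (Tfam) and 0.13 (Cox10) and limma adjusted p of 0.0795, 0.63 and 0.499. In the Rptor line every deficient sample of Furin was above every control. Inhibitors of Prss8 and St14, Spint1 (-0.86) and Spint2 (-0.45), were lower in the Rptor line, and so was Nedd4l (-0.30), the ubiquitin ligase that removes the channel from the membrane, which was also lower with Tfam loss (-0.44), a call lost relative to the epithelial genes (-0.16, adjusted p = 0.133). The Rptor call of Nedd4l was lost without control 1 or deficient 2 (0.0718 and 0.0623). Spint1 did not pass in the Rptor line relative to the epithelial genes (0.31, limma adjusted p = 0.0633). Stk39, a kinase that activates the cotransporter NKCC1, rose in the Tfam line (0.35, limma adjusted p = 0.00619), and Wnk4, a kinase upstream of it, in the Rptor line (0.52, adjusted p = 0.0167), a call lost without control 2 or 3 (0.0614 and 0.0503). Tsc22d3 (0.45), a target of glucocorticoids, and Nr3c1 (0.26), their receptor, rose in the Rptor line, and the call of Nr3c1 was lost without control 3 (0.0562).

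Among the chloride and anion channels of the list, Slc26a9 fell from 261, 350 and 269 to 111, 115 and 151 in the Rptor line (log2 fold change -1.22, limma adjusted p = 0.00114), a call that was lost relative to the epithelial genes (-0.05, adjusted p = 0.818). Ano9 fell as well (-1.17, adjusted p = 0.0053; 0.002 relative to the epithelial genes), and Ano6 rose slightly (0.16, adjusted p = 0.0494), a call that was lost when the replicate number was blocked (0.0625) and in all 6 fits that left out a sample. Atp1b2, another beta subunit of the sodium pump, read 334, 339 and 347 in Rptor controls and 735, 767 and 852 in Rptor-deficient lungs (log2 fold change 1.20, limma adjusted p = 5.94e-05). Fxyd1, a regulatory subunit, rose in the Rptor line (0.89), and Fxyd3, a regulatory subunit of epithelia, fell there (-1.56), a call that was lost relative to the epithelial genes (-0.39, adjusted p = 0.124). Markers of mesenchyme (5 of 6), immune cells (4 of 4) and mesothelium (3 of 4) rose in the Rptor line at the same time, with sums at 192%, 189% and 173% of control, and their part in the rise of these genes was not tested. The 10 listed genes under the filter included Foxi1 and Ascl3, which mark the ionocytes that carry much Cftr in the adult airway. Foxi1 was at 0 in 16 of 18 samples and Ascl3 did not exceed 4.04 normalised reads in any.

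**Figure D5:**
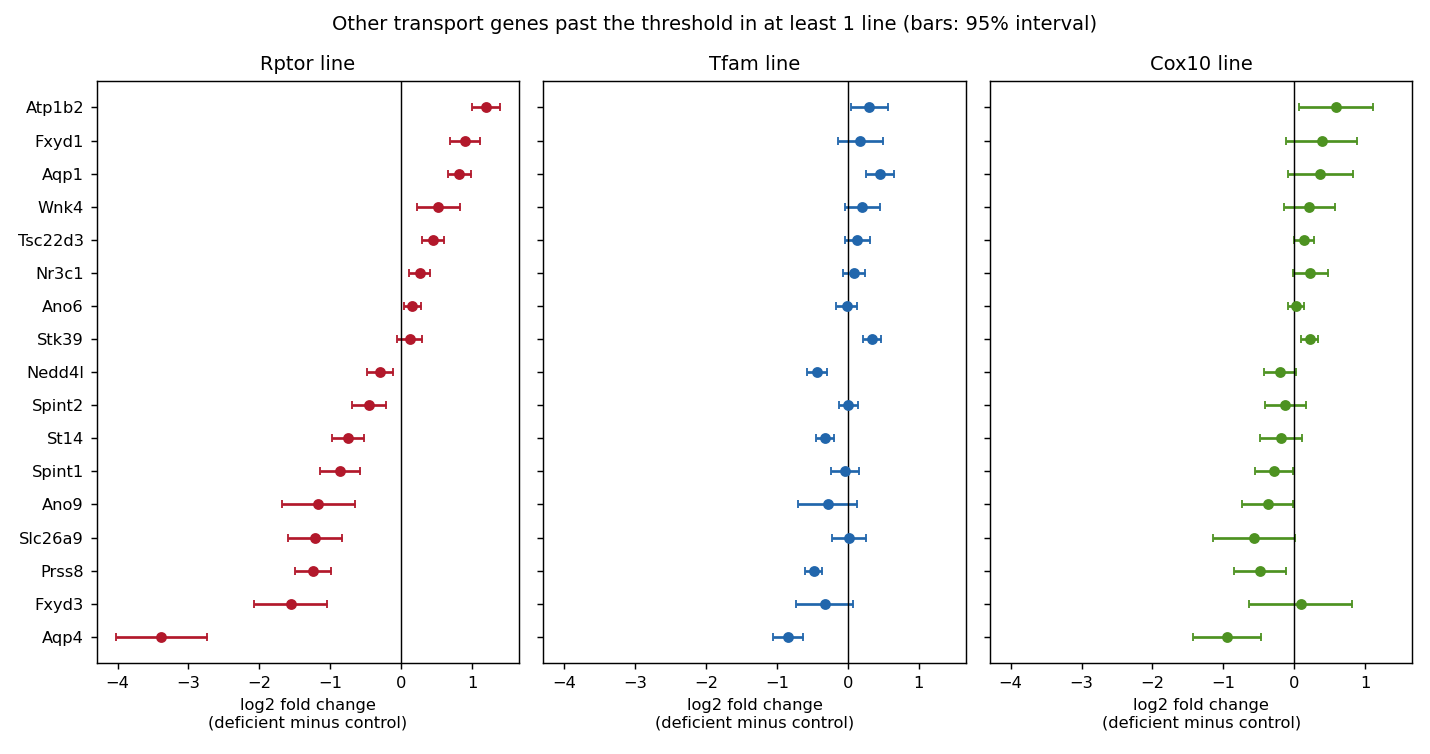
Log2 fold change (horizontal axis, deficient minus control) of the transport genes other than the 8 members that passed the threshold in at least 1 line and are reported here, with 95% intervals as bars, 1 panel per line. Aqp4 lies lowest in each panel, at -3.39 in the Rptor line, and Atp1b2 lies highest there at 1.20.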

How the data were processed

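RNA-seq of whole lungs at 14.5 dpc was analysed from 3 tables, 1 per line, with groups and replicate numbers taken from the sample titles. The submitters' processing notes name Trim Galore, HISAT2, featureCounts, DESeq2 and the build mm10. The methods name RNA extraction with TRIzol and a Qiagen kit, the BGISEQ-500 sequencer and R, whereas the labels name Illumina library protocols. The annotation and the strand setting of the counting are not given in the sources used here. The deposited values are a normalised signal, read counts per gene after division by one size factor for each sample. Of the values, 100% lay within 0.1 of a whole number of steps, the step being what 1 read is worth, and whole reads were recovered from them. The authors' deposited fold changes and p-values were not used.

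The main test was limma 3.58.1 (R 4.3.3, lmFit and eBayes with a trend, two-sided) on log2(value + 1), a scale that understates the change of low genes. Each line was fitted on its own, over genes with a value of at least 10 in at least 3 samples, with Benjamini-Hochberg adjustment over all genes tested and a threshold of 0.05. Differences between lines were fitted over all 18 samples in 6 groups, on 14550 genes. As alternatives, edgeR 4.0.16 (quasi-likelihood) and DESeq2 1.42.0 were run on the recovered reads, with others of pseudocount (0.1), filter, scaling, block, samples and reference. The limma fits were tested on simulated data. Levels per length used the union of GENCODE M21 exons, and upstream windows came from RefSeq, which held 6 of the 8 members.

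Replicate numbers are nowhere stated to pair samples. In the Rptor line the deviations of same-numbered samples from their group means correlated at 0.221, 0.330 and 0.259 across genes, over 0.1 in every pair, which was taken as pairing. In the Tfam (-0.312, -0.207 and 0.151) and Cox10 lines (0.447, 0.202 and 0.049) they did not. The main test left the replicate number out in every line, so the Rptor values given are from an unpaired fit. Replicate number entered only as a block among the alternatives. The members, the transport list and the markers were chosen with earlier results of these data known. Named genes are the members, each list gene past the threshold, Epcam, Cdh1 and Nkx2-1, and for each member the 3 genes with the highest Pearson r. Some genes of the list are not reported here by name, and the counts include them. Grhl2, Foxi1 and Ascl3 were named after their values were seen. Within groups, chi-square values per gene ran from 3.95 to 30.1, highest for Cox10 deficient 3, and no 2 samples were a single library.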

Additional observations from a re-analysis of the deposited data

Results flagged for a closer look

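Each value here is the log2 fold change in the Rptor line minus that in another line, from the limma fit over 18 samples, and each passed the threshold as a test of the difference between lines. Among the 8 members the difference between the Rptor and Tfam lines was -1.85 for Cftr, -0.57 for Slc12a2 and -0.50 for Ano1, and that between the Rptor and Cox10 lines was -1.60 for Cftr (limma adjusted p = 6.54e-05, 0.019, 0.0415 and 0.000327).

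Among the other transport genes, Aqp4 had the largest differences, at -2.54 against the Tfam line and -2.44 against the Cox10 line (limma adjusted p = 0.000156 and 0.000298). Against the Tfam line the effect in the Rptor line was lower for Fxyd3 (-1.23), Slc26a9 (-1.23), Ano9 (-0.89), Spint1 (-0.83) and Prss8 (-0.76), and higher for Atp1b2 (0.90), with limma adjusted p from 0.00548 to 0.043. Against the Cox10 line it was lower for Fxyd3 (-1.65), Prss8 (-0.76), Spint1 (-0.58) and St14 (-0.57), with limma adjusted p from 0.0102 to 0.0464. The summed epithelial markers stood at 45.2% (Rptor), 82.8% (Tfam) and 76.6% (Cox10) of control, and their part in these differences was not tested.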

How the results depend on the processing

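Count tests (edgeR and DESeq2) on recovered reads, a pseudocount of 0.1, other filters and other scalings left the counts of members lower at 6 to 7 (Rptor), 5 (Tfam) and 2 to 3 (Cox10). Leaving out a sample gave 6 to 7, 4 to 5 and 0 to 3 in the same order, and the Cox10 count was 0 without control 1, 2 or 3, 1 without deficient 1 and 3 without deficient 3. Transport genes past the threshold then numbered 14 to 18, 5 to 7 and 0 to 2, and members whose effect differed 1 to 3 (Rptor minus Tfam), 1 to 2 (Rptor minus Cox10) and 0 (Tfam minus Cox10). With all 18 samples in one fit the transport genes called numbered 3 (Tfam) and 2 (Cox10), the members called 4 (Tfam) and 3 (Cox10), and DESeq2 also called 2 transport genes for Cox10. With the replicate number as a block 1 was called in the Cox10 line, 2 members differed between the Rptor and Cox10 lines, and the counts of members stayed at 7, 5 and 2. In the Rptor line the block gave 20 transport genes. Apart from Ano6 in the Rptor line and Slc12a2 between the Rptor and Cox10 lines, it changed no call of a member, nor of a list gene in a line where it was called without the block.

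Relative to Epcam, Cdh1 and Nkx2-1 the values shift upward by construction, with 14238 of 14940 (Rptor), 7571 of 15053 (Tfam) and 8100 of 14937 (Cox10) genes called and 12936 (Rptor minus Tfam) and 12351 (Rptor minus Cox10) of 14550 for the differences. The counts, which say nothing particular to these genes, became 43, 27 and 31 transport genes, 5 members in the Cox10 line and 5 members whose effect differed in each comparison with the Rptor line. Among values past the threshold on either scale, the sign turned in the Rptor line, with all values under the median of 1.18 over all genes, for Ano1 (0.024), Slc12a2 (0.70), Scnn1a (0.51), Atp1b1 (0.12), Ano9 (0.002), St14 (0.42), Spint1 (0.31), Spint2 (0.72) and Nedd4l (0.87), and in the Cox10 line for Slc12a2 (0.34, median 0.40). By the same rule the differences turned sign between the Rptor and Tfam lines (median 0.90) for Ano1 (0.40), Slc12a2 (0.33) and Scnn1a (0.85), and between the Rptor and Cox10 lines (median 0.77) for Ano1 (0.40), Clcn2 (0.68), Slc12a2 (0.36) and Scnn1g (0.77). Ano1, Atp1b1, Ano9 and Spint1 in the Rptor line did not differ from 0 on this scale by limma (adjusted p = 0.863, 0.448, 0.994 and 0.0633). Depth is low for Scnn1b, with 5.03 to 29.8 normalised reads per sample in the Cox10 line.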
